A study of Mus musculus with 18 samples.

Results

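The genes described here are the ligands Csf1, Csf2, Csf3 and Il34, the receptor genes Csf1r, Csf2ra, Csf2rb and Csf3r, and Spi1, which encodes the transcription factor PU.1. They are 9 of the 55401 genes in the count table, listed by name with earlier results of these data known. All 9 were found, Spi1 under its older symbol Sfpi1. RNA sequencing was performed in primary, mixed cultures of mouse embryonic fibroblasts (MEFs) from mid-gestation C57BL/6 embryos, in 2 series of 9 libraries. In the S6K1 series, wild-type (WT) MEFs carried an empty retroviral vector (EV) or oncogenic HRAS (RAS), and S6K1-knockout (KO) MEFs carried RAS. The S6K1/S6K2 series held the same 2 groups of WT MEFs beside double-knockout (DKO) MEFs that lacked both kinases and carried RAS. Each of the 6 groups had 3 libraries, and every culture had been through transduction and puromycin selection. RAS induces senescence in these cells, and comparing KO or DKO with WT asks how the transcriptome under RAS depends on the S6 kinases. By the study's methods S6K1 KO and WT embryos were littermates from heterozygous parents, whereas the WT controls of the DKO cells were not littermates. The labels do not say which KO and WT embryos shared a litter, so pairing them by replicate number is an assumption. EV libraries of KO or DKO cells were not analysed here, so S6K loss is seen under RAS only. Below, EV and RAS without a genotype mean WT cells, and KO and DKO always carried RAS.

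Colony-stimulating factors are secreted proteins that keep myeloid cells alive and drive their growth and maturation. CSF1 and IL-34 are separate ligands of 1 receptor, CSF1R, on which tissue macrophages depend, and fibroblasts are a known source of CSF1. CSF2 (GM-CSF) binds a specific α-chain encoded by Csf2ra together with a shared β-chain encoded by Csf2rb, which also serves the receptors of interleukin-3 and interleukin-5. CSF3 (G-CSF) acts through CSF3R on neutrophils and their precursors. PU.1 is a master regulator of the myeloid lineage and is known to act on the genes of several of these receptors.

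Libraries held 8319445 to 14402442 counts. Levels are given as CPM, the count relative to library size after trimmed-mean (TMM) scaling within a series. The targeted Rps6kb1, which encodes S6K1, averaged 30.6 CPM in KO against 68.9 with RAS, and 37.4 in DKO against 80.5. Rps6kb2, which encodes S6K2, averaged 2.83 CPM in DKO against 25.8 with RAS. All 8 fibroblast markers were detected in every library. Their summed level was 25200 to 43300 CPM with EV and 8680 to 11600 with RAS over both series, and 4 of the 8 fell in each series, while 1, Lum, rose in the S6K1 series (13.2% and 26.3% of all genes passed). The 22 macrophage markers were detected too, except that Fcgr1 and Aif1 stood at 0 in 1 library each, so the cultures were not fibroblasts alone. Their summed level ran from 863 to 4140 CPM with EV, 944 to 4670 with RAS and 334 to 1090 in KO. The S6K1/S6K2 series ran from 206 to 1810 CPM with EV, 232 to 1280 with RAS and 101 to 332 in DKO. Replicates 1 and 2 of the S6K1 series and replicate 1 of the S6K1/S6K2 series were the macrophage-rich WT lines. In bulk RNA, fewer cells of a type and less RNA per cell cannot be told apart.

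**Figure D1:**
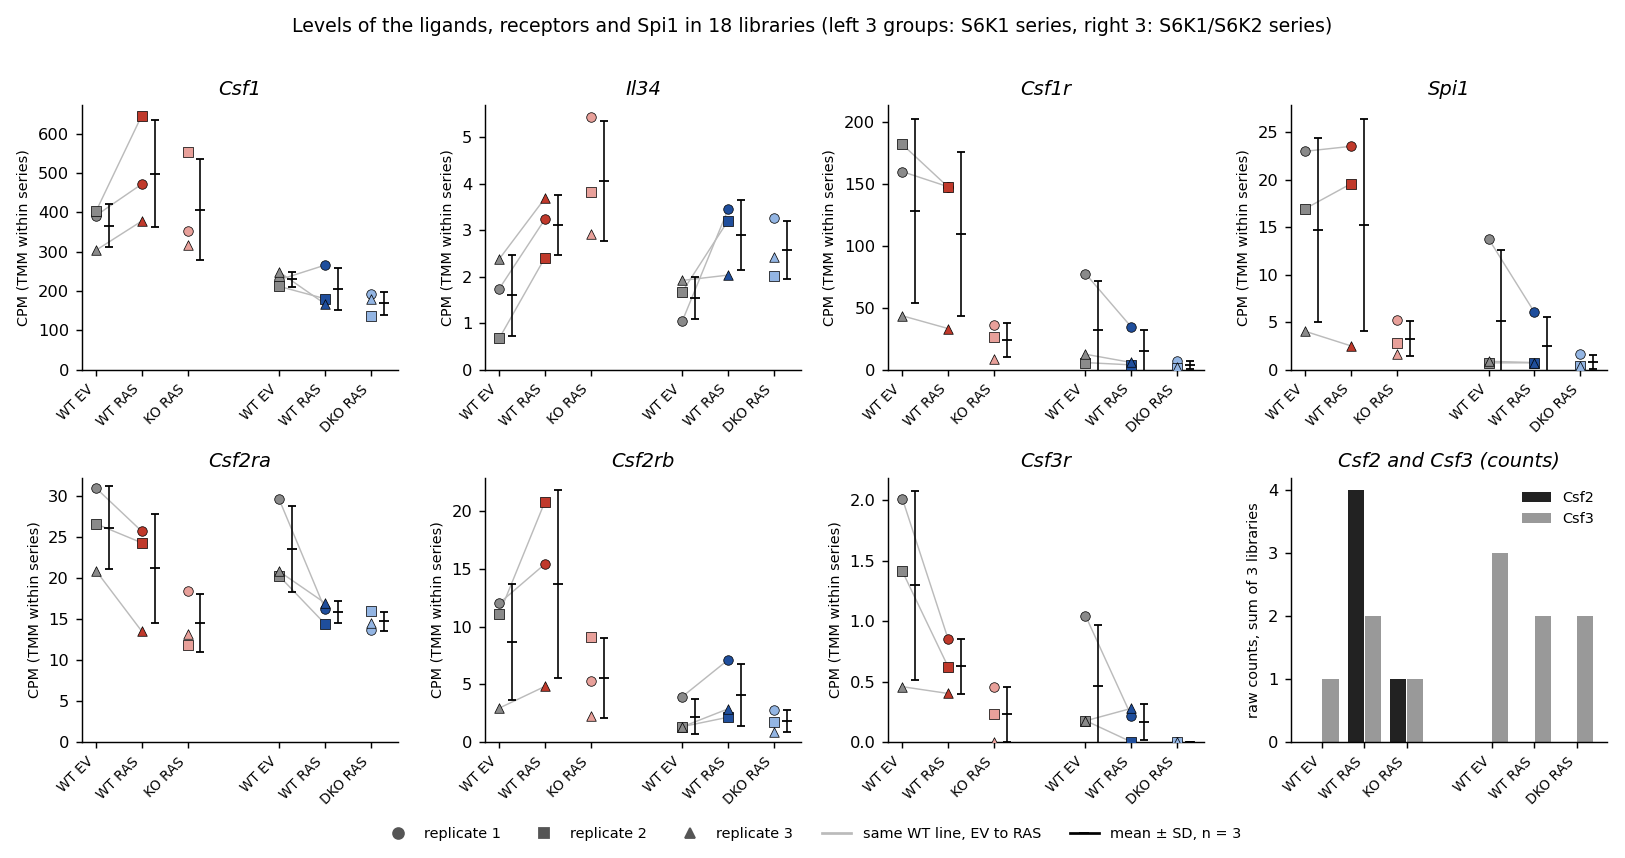
Level of each gene in every library. The vertical axes show CPM from 0, points are libraries shaped by replicate number, grey lines join EV and RAS of the same WT line, black marks are mean ± SD (n = 3, cut at 0), and the bars for Csf2 and Csf3 are raw counts summed over 3 libraries. Il34 is higher in all RAS than in all EV libraries of each series, and Csf1r and Spi1 differ several-fold between lines of 1 group.

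To compare genes with each other, levels were divided by exon length. Csf1 was the most abundant of the 9 genes in every library. It averaged 69.5 ± 10.3 CPM per kb (SD, n = 3) with EV, 94.7 ± 25.8 with RAS and 77.3 ± 24.2 in KO, and 43.6 ± 3.48, 38.8 ± 10.2 and 32.0 ± 5.66 in the 3 groups of the S6K1/S6K2 series. With EV in the S6K1 series Csf1r followed at 24.6 ± 14.2 CPM per kb and Csf2ra at 14.1 ± 2.73, an order that held in 2 of 3 libraries. Csf2ra lay above Spi1 (5.44 CPM per kb), and Spi1 above Csf2rb (1.71 ± 0.987), in 3 of 3 libraries. Csf2rb lay above Il34 (0.814 ± 0.441) in 2 of 3, and Il34 above Csf3r (0.313 ± 0.190 CPM per kb) in 3 of 3, in replicate 2 by 0.3419 against 0.3412 CPM per kb. In KO, and in all 3 groups of the S6K1/S6K2 series, Csf2ra took the second place. Csf1r came after it, except in DKO, where Il34 (1.31 ± 0.323 CPM per kb) stood above Csf1r (0.683 ± 0.625) in 3 of 3 libraries, although their ranges overlapped.

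The ratio of Csf1 to Csf1r per kb, ligand to receptor, ran from 2.20 to 6.94 with EV, 3.17 to 11.3 with RAS and 9.69 to 35.3 in KO. EV and RAS overlapped, as did RAS and KO, which both carried RAS, and KO lay above EV in every library. The S6K1/S6K2 series gave 2.93 to 37.2 with EV, 7.67 to 47.1 with RAS and 26.1 to 102 in DKO, all overlapping. The ratio of the 2 ligands, Csf1 to Il34, had medians of 83.9, 54.2 and 40.5 over EV, RAS and KO, and of 48.1, 28.6 and 24.8 over EV, RAS and DKO.

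**Figure D2:**
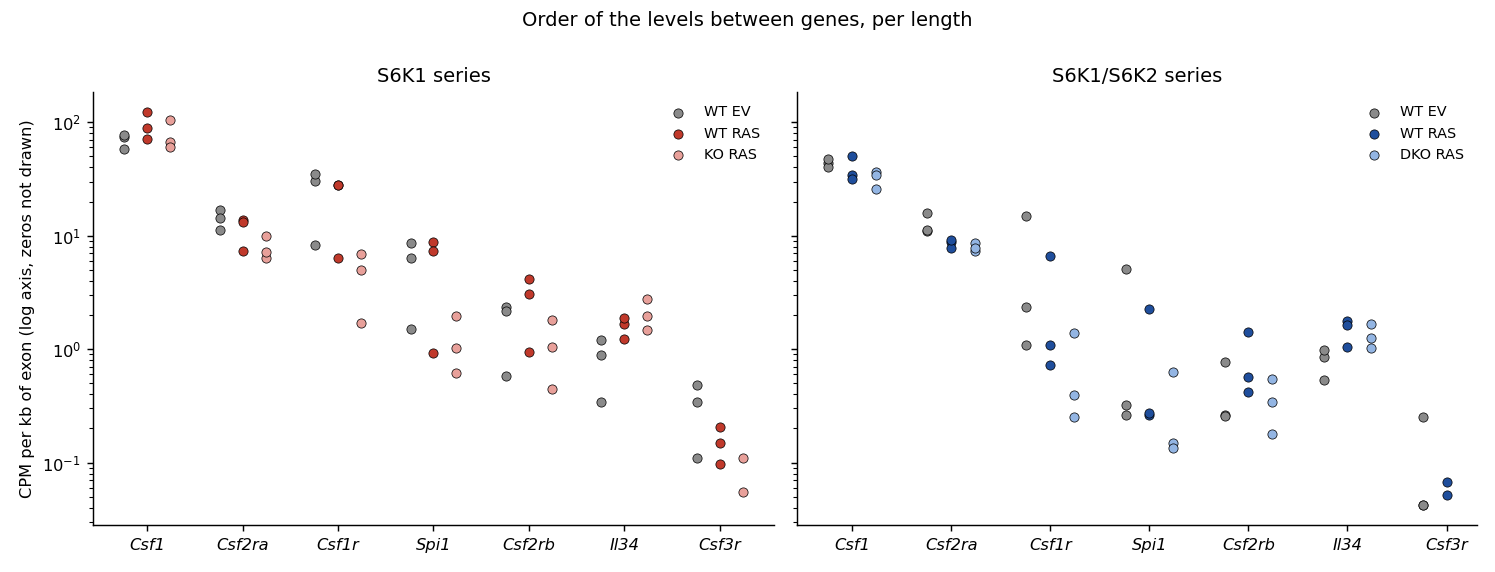
Level of each gene per kilobase of exon (CPM per kb, log axis) in each library of the S6K1 series (left) and the S6K1/S6K2 series (right), coloured by group, with zeros not drawn. Csf1 lies above the other genes in every library, and Csf2ra varies little beside Csf1r and Spi1.

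The start regions of the most and the least abundant ligand gene are shown to set them side by side, with that of Csf2ra, the receptor gene called in 1 series. RefSeq promoters (250 bases before to 50 after the start, build GRCm38.p6) were given for 4 of the 9 genes. Capitals mark matches to the motifs searched on both strands: the NF-κB consensus, the AP-1 site TGANTCA, the PU.1 core GAGGAA, the Sp1 GC box GGGCGG, the cAMP response element TGACGTCA and the TATA box TATAAA. The sequences run 5′ to 3′ along the gene, from chr3:107760420-107760719, chr11:54249850-54250149 and chr19:61228369-61228668, all on the minus strand.
Csf1: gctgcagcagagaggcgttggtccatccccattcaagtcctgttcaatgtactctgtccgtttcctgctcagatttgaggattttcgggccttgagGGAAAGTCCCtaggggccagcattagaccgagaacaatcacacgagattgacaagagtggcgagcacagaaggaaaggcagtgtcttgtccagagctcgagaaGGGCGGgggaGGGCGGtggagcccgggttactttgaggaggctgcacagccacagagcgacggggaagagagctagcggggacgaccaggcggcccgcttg
Csf2: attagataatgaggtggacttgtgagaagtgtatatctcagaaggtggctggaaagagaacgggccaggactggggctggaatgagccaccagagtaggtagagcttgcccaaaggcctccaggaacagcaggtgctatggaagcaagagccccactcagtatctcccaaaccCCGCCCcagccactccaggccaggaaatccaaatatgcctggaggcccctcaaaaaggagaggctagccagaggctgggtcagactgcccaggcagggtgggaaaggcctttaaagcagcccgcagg
Csf2ra: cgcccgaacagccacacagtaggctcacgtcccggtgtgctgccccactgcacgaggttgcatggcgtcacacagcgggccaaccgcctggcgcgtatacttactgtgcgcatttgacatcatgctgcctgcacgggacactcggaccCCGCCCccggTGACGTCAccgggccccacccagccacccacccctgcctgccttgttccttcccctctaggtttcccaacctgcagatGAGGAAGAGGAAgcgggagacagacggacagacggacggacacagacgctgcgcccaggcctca
The Csf1 window held an NF-κB match on the opposite strand from 154 bases before the start and 2 GC boxes from 51 and 41 bases before it. Of 32817 promoters of this length, 4.5% held the NF-κB consensus and 35.6% the GC box. The Csf2 window held only a GC box, on the opposite strand from 77 bases before the start. The Csf2ra window held a GC box on the opposite strand, a cAMP response element from 92 bases before the start (found in 1.79% of promoters) and 2 adjoining PU.1 cores from 14 and 8 bases before it (28.3%). None of the 3 held an AP-1 site (7.81% of promoters) or a TATAAA (13.6%). A match describes these letters only.

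Csf1, the abundant ligand (chr3:107741048-107760469, GRCm38.p6), was measured with 66692 counts in all. It stood at 391.6, 402 and 303 CPM with EV, at 472, 646 and 378 with RAS and at 351, 552 and 316 in KO (replicates 1, 2 and 3). Levels in the S6K1/S6K2 series were 228, 212 and 248 CPM with EV, 266, 180 and 167 with RAS and 192, 135 and 179 in DKO. Every line of the S6K1 series was thus higher with RAS than with EV, by log2 ratios of 0.27, 0.68 and 0.32, whereas in the other series 1 line was higher and 2 were lower. The fitted log2 fold change of RAS over EV was 0.45 (SE 0.254, adjusted p = 0.307) in the first series and -0.17 (SE 0.196, adjusted p = 0.553) in the second. With the replicate number as a term, which pairs EV and RAS of 1 line, the first became 0.42 (adjusted p = 0.0158) and passed the threshold of 0.05. The difference between the series was -0.63 (SE 0.340, adjusted p = 0.449) and did not pass. KO was lower in 3 of 3 same-numbered pairs, at 74.5%, 85.5% and 83.8% of WT, but the change of -0.29 (SE 0.254, adjusted p = 0.997) did not pass with or without pairing. For DKO the fitted change was -0.28 (SE 0.196, adjusted p = 1).

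Il34, the other ligand of CSF1R (chr8:110741829-110805949), was scarce, with 534 counts over 18 libraries. It stood at 1.74, 0.670 and 2.38 CPM with EV, at 3.24, 2.41 and 3.69 with RAS and at 5.45, 3.83 and 2.91 in KO. Levels in the S6K1/S6K2 series were 1.05, 1.68 and 1.92 CPM with EV, 3.45, 3.21 and 2.04 with RAS and 3.27, 2.02 and 2.43 in DKO. The lowest RAS library lay just above the highest EV library in both series, a separation whose share over all genes was not counted. All 6 WT lines were higher with RAS, at 106% to 360% of their EV library. For comparison, 18.9% of 14525 genes were higher in all 6 lines and 18.5% lower. Within a series the increase of 0.97 (SE 0.435, adjusted p = 0.192) or 0.90 (SE 0.369, adjusted p = 0.100) did not pass. Averaged over both series, in 1 fit of 18 libraries, Il34 rose by 0.94 on the log2 scale (SE 0.288, adjusted p = 0.0184). KO and DKO differed from WT under RAS by 0.38 (SE 0.413) and -0.17 (SE 0.360), and neither passed (adjusted p = 0.997 and 1).

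Csf2 (chr11:54247270-54249899) and Csf3 (chr11:98700183-98703631) were at the limit of detection. Csf2 had 5 counts in all, 3 and 1 with RAS and 1 in KO of the S6K1 series. It had none in the 93762244 counts of the S6K1/S6K2 series, which allows a level of up to 0.032 CPM. Csf3 had 11 counts in all, with at most 3 in a library, and each group of both series held at least 1. Neither entered a test. With RAS the GM-CSF and G-CSF transcripts reached at most 0.256 and 0.108 CPM in any library. Changes below such levels were not detectable at this depth. Intervals and limits of this kind cover counting error only.

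RAS was then compared with EV across the set. In the S6K1 series 7 of the 9 genes were tested and none passed an adjusted p of 0.05 by edgeR, while 13.2% of all genes did. None of the 7 had an unadjusted p under 0.05, and DESeq2 also called none. In the S6K1/S6K2 series 6 were tested and 1, Csf2ra, passed, against 26.3% of all genes. In the average of both series 1 of 7, Il34, passed, against 34.9% of all genes. The share called was thus below that of all genes each time. The median log2 fold change of the tested genes was 0.04 in the S6K1 series and -0.37 in the other, against 0.00 and -0.02 over all genes.

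Csf2ra, the α-chain of the GM-CSF receptor (chr19:61217191-61228461), varied less between lines than Csf1r and Spi1 did. The Csf2ra level in the S6K1/S6K2 series was 29.6, 20.2 and 20.8 CPM with EV and 16.2, 14.39 and 16.9 with RAS, with no overlap. The share of all genes without overlap was not counted. Csf2ra fell by 0.57 on the log2 scale (SE 0.180, adjusted p = 0.042). In the S6K1 series it stood at 30.9, 26.6 and 20.9 CPM with EV and at 25.7, 24.3 and 13.5 with RAS, lower in 3 of 3 lines but overlapping (log2 fold change -0.31, SE 0.270, adjusted p = 0.518). The call was lost without EV replicate 1 (adjusted p = 0.120) or without RAS replicate 1 (0.0774), 2 (0.136) or 3 (0.0859), and the adjusted p was 0.0524 with the replicate term. Averaged over both series the change was -0.43 (SE 0.171, adjusted p = 0.0653, and 0.0155 with the replicate term).

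Csf1r, the receptor of CSF1 and IL-34, stood at 160, 182 and 43.5 CPM with EV and at 148, 148 and 33.1 with RAS of the S6K1 series. The other series had 77.5, 5.65 and 12.4 CPM with EV and 34.4, 3.81 and 5.74 with RAS. The lines of 1 group differed far more than EV and RAS of 1 line did. RAS libraries stood at 92.4%, 81.1% and 76.2% of their own EV line in the S6K1 series and at 44.4%, 67.3% and 46.3% in the other. Fitted changes were -0.23 (SE 0.680, adjusted p = 0.866) and -1.12 (SE 1.039, adjusted p = 0.451). With the replicate term they were -0.27 (adjusted p = 0.108) and -0.99 (adjusted p = 0.0167), and the average of both series was -0.63 (adjusted p = 0.0013). Without the macrophage-rich EV replicate 1 the unpaired change in the S6K1/S6K2 series turned to 0.70.

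Csf2rb, the shared β-chain (chr15:78325800-78351001), stood at 12.02, 11.1 and 2.93 CPM with EV and at 15.4, 20.8 and 4.81 with RAS of the S6K1 series. The other series had 3.92, 1.32 and 1.31 CPM with EV and 7.12, 2.14 and 2.87 with RAS. All 6 lines were higher with RAS, at 128% to 219% of their own EV library, although the groups overlapped in both series. The fitted changes of 0.65 (SE 0.656, adjusted p = 0.580) and 0.88 (SE 0.611, adjusted p = 0.310) did not pass. With the replicate term the change was 0.64 in the S6K1 series (adjusted p = 0.0182), 0.90 in the other (adjusted p = 0.073) and 0.78 in their average (adjusted p = 0.0027). Of all genes, 36.2%, 28.7% and 45.5% passed in those 3 paired fits, so that 2 of 7, 1 of 6 and 4 of 7 of the genes described here were near the background.

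Csf3r, the receptor of G-CSF (chr4:126023441-126044975), was scarce, at 2.02, 1.41 and 0.457 CPM with EV and 0.852, 0.622 and 0.401 with RAS of the S6K1 series (53 and 23 counts). The other series had 16 counts with EV, 5 with RAS and 0 in DKO, where 0 counts allow up to 0.0944 CPM. Of the single series Csf3r was tested in the S6K1 series only, where the change of -1.07 on the log2 scale did not pass (SE 0.682, adjusted p = 0.365). The average over both series, -1.21, did not pass either (SE 0.653, adjusted p = 0.173, and 0.072 with the replicate term). Of the neutrophil markers, Mpo was at 0 in all 18 libraries and S100a9, Elane, Camp, Ngp and Ltf had at most 1 count in a library. Mmp8 had at most 20 counts in a library and was at 0 in 4 libraries. S100a8 and Ly6g, with at most 27 and 184 counts in a library, rose with RAS in both series. Of the 9 markers 2 were tested and 2 passed in each series, against 13.2% and 26.3% of all genes.

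Spi1 (chr2:91082374-91115759) stood at 23.0, 17.0 and 4.03 CPM with EV and at 23.5, 19.6 and 2.49 with RAS of the S6K1 series. The other series had 13.8, 0.706 and 0.873 CPM with EV and 6.04, 0.713 and 0.740 with RAS. Neither series showed a change beyond the spread between lines, with fitted values of 0.04 (SE 0.773, adjusted p = 0.979) and -1.03 (SE 1.174, adjusted p = 0.539). Leaving out EV replicate 1 of the S6K1/S6K2 series turned the latter to 1.64.

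**Figure D3:**
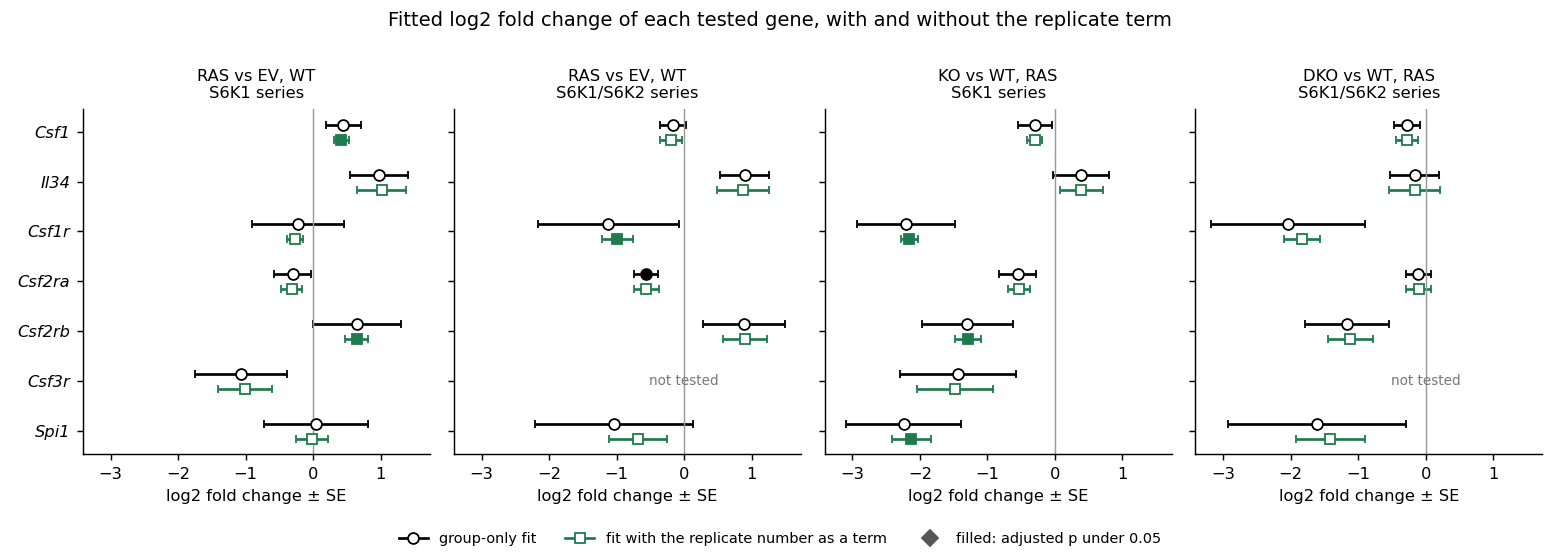
Fitted log2 fold change with its standard error for each tested gene in the 4 comparisons, from the fit with groups only (black circles) and with the replicate number as a term (green squares), filled where the adjusted p is under 0.05. Estimates are close between the fits, whereas the standard errors of Csf1r, Csf2rb and Spi1 are smaller with the replicate term.

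S6K loss was examined under RAS. KO was lower than WT for 6 of the 7 tested genes, Il34 being the exception, and DKO for 6 of 6. The median log2 fold change of the tested genes was -1.30 and -0.72, against 0.03 and 0.00 over all genes. None passed the threshold in either comparison by edgeR, where 0.00712% and 0.0216% of all genes passed. An unadjusted p under 0.05 was reached by 2 of 7 and 0 of 6 of them, and DESeq2 called none. With the same-numbered pairs of the S6K1 series as a term, 3 of 7 fell, against 4.15% of all genes. That KO and WT of 1 number were littermates was assumed. These were Csf1r, Csf2rb and Spi1. The replicate term called 0 of 6 in DKO, where 0.0576% of all genes passed and the numbers mark no littermates.

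Csf1r was at 36.1, 26.3 and 8.90 CPM in KO, or 24.4%, 17.8% and 26.9% of the WT RAS library with the same number. The 3 pairs gave similar ratios although the WT levels ran from 33.1 to 148 CPM. The fitted change was -2.21 (SE 0.720, adjusted p = 0.587), and -2.16 (SE 0.130, adjusted p = 1.71e-05) with the pairs. In DKO Csf1r was at 7.32, 1.32 and 2.07 CPM against 34.4, 3.81 and 5.74 with RAS (-2.04, SE 1.141, adjusted p = 1). Here the highest DKO library lay above the 2 lower WT libraries.

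Spi1 was at 5.27, 2.76 and 1.66 CPM in KO against 23.5, 19.6 and 2.49 with RAS. Replicate 3, the macrophage-poor pair, was at 66.9% of WT and the other pairs at 22.4% and 14.1%. The fitted change was -2.24 (SE 0.848, adjusted p = 0.601), and -2.13 (SE 0.285, adjusted p = 0.00191) with the pairs. Without the 3 libraries numbered 3, an alternative chosen after seeing the data, Csf1r (adjusted p = 0.00589) and Spi1 (adjusted p = 0.0167) passed without pairing. In DKO Spi1 was at 1.68, 0.405 and 0.360 CPM (-1.61, SE 1.316, adjusted p = 1).

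Csf2rb was at 5.27, 9.11 and 2.25 CPM in KO, 34.1% to 46.7% of the paired WT library (-1.30, SE 0.674, adjusted p = 0.863, and -1.29 with adjusted p = 0.00316 with the pairs). In DKO it was at 2.77, 1.72 and 0.901 CPM (-1.17, SE 0.623, adjusted p = 1). Csf2ra was at 18.4, 11.8 and 13.2 CPM in KO (-0.55, SE 0.274, adjusted p = 0.832) and at 13.7, 15.9 and 14.5 in DKO (-0.11, SE 0.181, adjusted p = 1). Csf3r had 8 counts in KO against 23 with RAS (-1.44, SE 0.857, adjusted p = 0.948). None of the 7 tested genes passed the test of a difference between the loss effects of the 2 series, which 0.0069% of all genes passed, and there the kinase lost and the series cannot be told apart.

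The macrophage markers were lower as well. In KO 22 of 22 tested were lower, with a median log2 fold change of -2.23 against 0.03 over all genes. None passed in the fit with groups only, where 0.00712% of all genes did, and 21 did with the same-numbered pairs, against 4.15%. In DKO 21 of 21 were lower, with a median of -1.95 against 0.00 over all genes. None passed without the replicate term, where 0.0216% of all genes did, and 4 passed with it, against 0.0576%. The changes of Csf1r and Spi1 in KO lay close to the median of these markers, and the part of macrophage content in them was not tested.

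Across the 18 libraries the log2 level of Csf1r correlated with the mean log2 level of the macrophage markers at r = 0.989, that of Spi1 at 0.983, Csf2rb at 0.909 and Csf3r at 0.888. Csf1 stood at 0.806, Csf2ra at 0.696 and Il34 at -0.12. Libraries share lines, groups and series, so these are descriptions. Within the S6K1 and the S6K1/S6K2 series the values were 0.535 and 0.746 for Csf1 and 0.888 and 0.570 for Csf2ra.

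**Figure D4:**
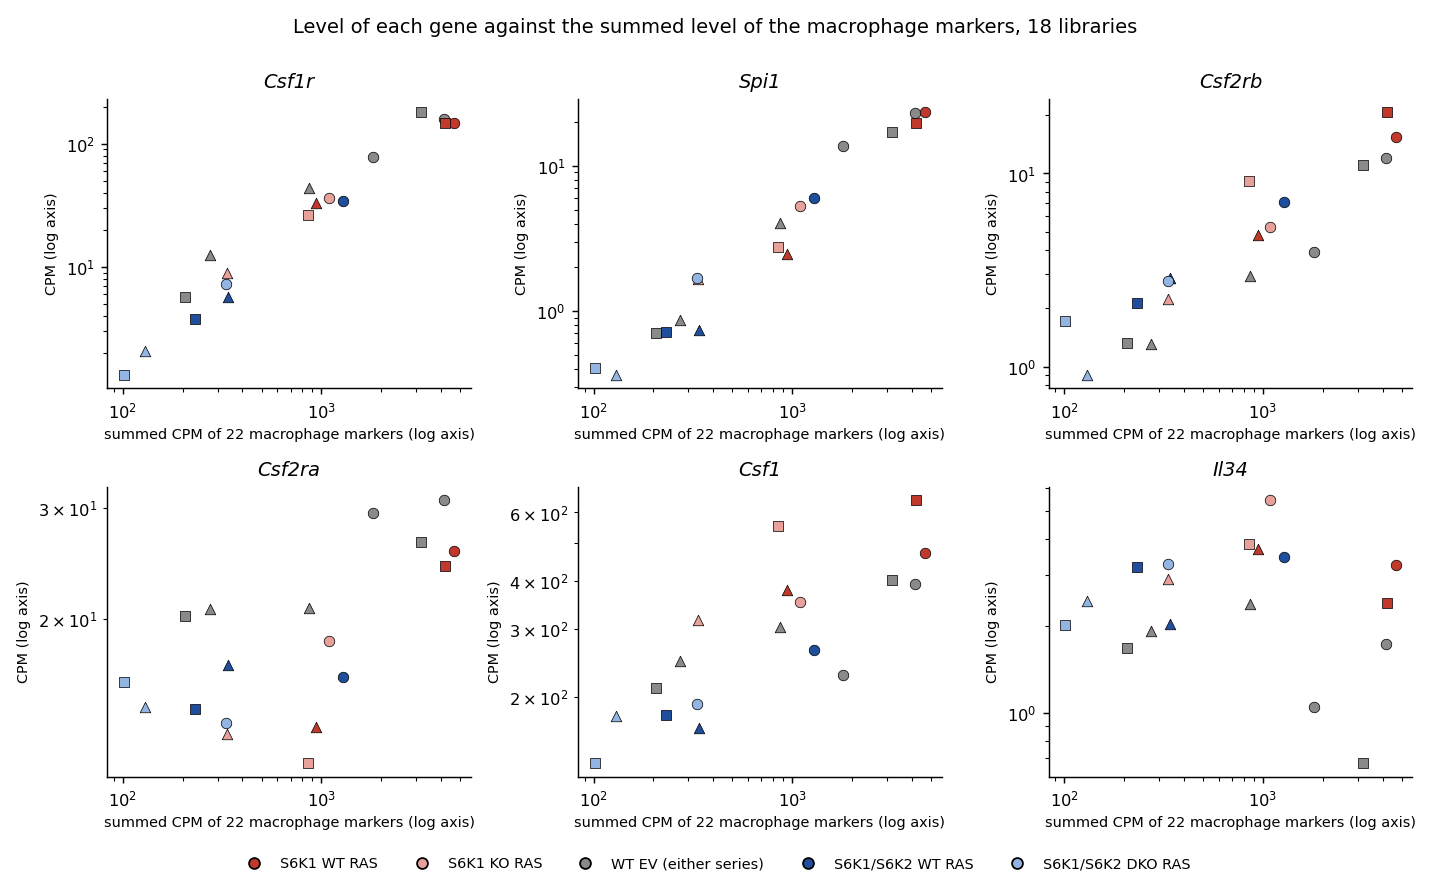
Level of 6 genes (CPM) against the summed CPM of 22 macrophage markers, both on log axes, for 18 libraries coloured by group, with circles, squares and triangles for replicates 1, 2 and 3. Csf1r and Spi1 follow the marker sum over its whole range, Csf2rb follows it more loosely, and Il34 does not.

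To set the receptors beside the macrophage content, each was expressed as a percentage of the summed marker level of its library. Csf1r was 4.88 ± 0.946% of the sum with EV, 3.40 ± 0.205% with RAS and 3.02 ± 0.330% in KO (SD, n = 3). For the S6K1/S6K2 series it was 3.86 ± 0.966% with EV, 2.01 ± 0.592% with RAS and 1.70 ± 0.464% in DKO. RAS libraries were below EV in 6 of 6 lines, with a mean log2 difference of -0.73 ± 0.380 (SD over 6 lines), and still -0.54 ± 0.325 without Lyz2, the marker with the highest counts. The KO and DKO libraries overlapped those of WT with RAS on this scale.

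Csf2rb was 0.326 ± 0.0319% of the sum with EV, 0.446 ± 0.100% with RAS and 0.742 ± 0.300% in KO. For the S6K1/S6K2 series it was 0.447 ± 0.215%, 0.775 ± 0.194% and 1.08 ± 0.544% over EV, RAS and DKO. All 6 WT lines were higher with RAS, by a mean log2 difference of 0.66 ± 0.396. Relative to the markers of the same libraries, Csf1r and Csf2rb thus stood in opposite directions with RAS. The levels of the markers themselves also went both ways with RAS. In the S6K1 series 16 were higher and 6 lower, and in the other 6 were higher and 15 lower. None of them passed in the fit with groups only, against 13.2% and 26.3% of all genes. With the replicate term 8 rose and 3 fell in the S6K1 series, where 36.2% of all genes passed. In the other series 1 rose and 6 fell with that term, where 28.7% of all genes passed. Spi1 was 0.519 ± 0.0461% with EV, 0.412 ± 0.129% with RAS and 0.435 ± 0.0970% in KO, lower with RAS in 6 of 6 lines on this scale but in 5 of 6 against the mean log2 level of the markers. Csf2ra was 0.550% to 3.93% of the sum over the S6K1 series and 1.26% to 15.7% over the other. Its share was highest in the 2 DKO libraries with the lowest marker sums.

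**Figure D5:**
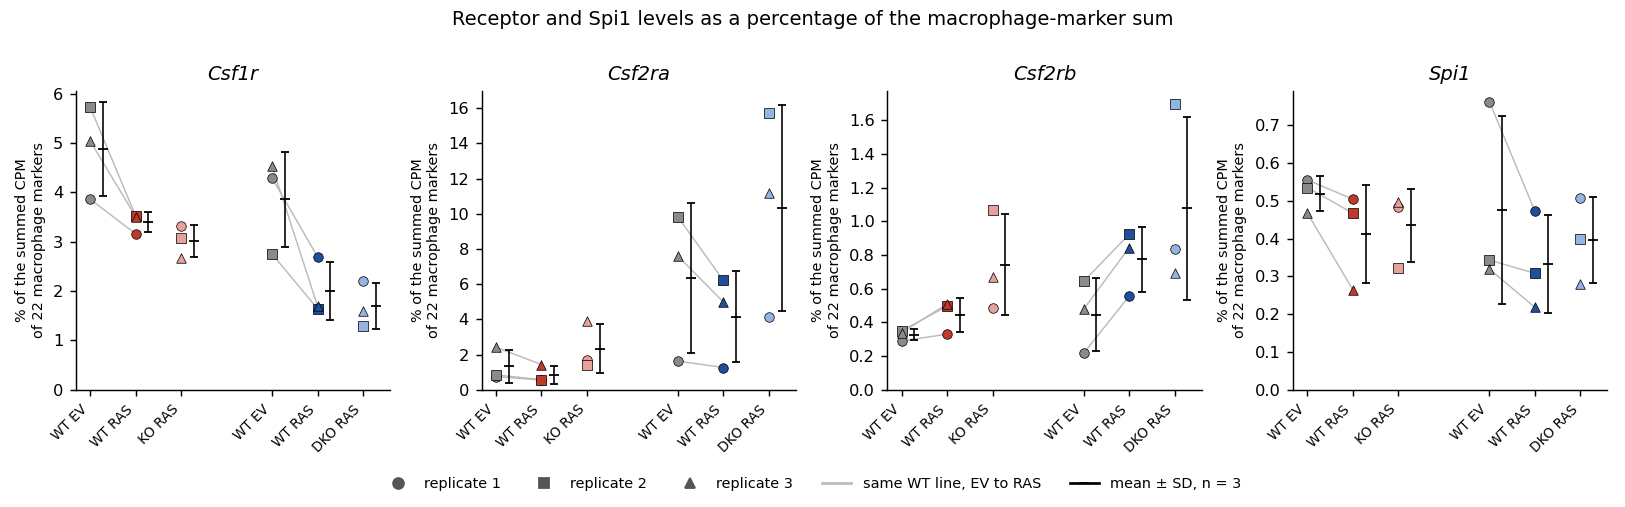
Csf1r, Csf2ra, Csf2rb and Spi1 as a percentage of the summed CPM of 22 macrophage markers, per library, with grey lines joining EV and RAS of the same WT line and black marks for mean ± SD (n = 3). Csf1r is lower and Csf2rb higher with RAS in all 6 lines, and Csf2ra is highest in the macrophage-poor libraries.

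Csf2rb has a near copy in the mouse, Csf2rb2, which encodes a β-chain specific for interleukin-3 and lies beside it on chromosome 15. Their coding sequences (2691 and 2637 bases) were 95.2% identical over 2631 aligned bases, and 26.3% of the 50-base windows of the Csf2rb coding sequence occurred unchanged in Csf2rb2. The stretch of 60 coding bases with the most differences, 13, is shown for both genes, with capitals at the bases that differ, since reads from it can tell them apart.
Csf2rb: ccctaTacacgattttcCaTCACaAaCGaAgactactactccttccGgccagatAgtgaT
Csf2rb2: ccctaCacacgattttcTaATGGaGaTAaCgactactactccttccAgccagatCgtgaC
How reads shared between them were counted is not given in the sources used here, so the values of both are uncertain to that extent. Csf2rb2 in the S6K1 series was at 7.74 ± 3.91 CPM with EV, 8.54 ± 3.87 with RAS and 3.14 ± 1.24 in KO. It did not pass for RAS there (0.14, SE 0.480, adjusted p = 0.892), and for KO it was lower at -1.44 (SE 0.505, adjusted p = 0.587, and 0.00395 with the pairs). The S6K1/S6K2 series had 2.07 ± 1.83 CPM with EV, 2.87 ± 2.58 with RAS and 0.457 ± 0.461 in DKO. No 50-base window of Csf1, Csf2, Csf3, Il34, Csf1r, Csf2ra or Spi1 was shared with another gene. Csf2, Il34 and Csf1r overlap annotated genes on the opposite strand (Gm12223, Gm15894 and Hmgxb3 among them).

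Partners of the receptors were examined next. Of the 5 genes of the β-common family, Il3 had no count, Il5 was too low to test, and 3 were tested. In each series 1 of the 3 rose, against 13.2% and 26.3% of all genes called. That was Il5ra, the α-chain of the interleukin-5 receptor. It had 1 count with EV against 101 with RAS in the S6K1 series, a ratio of 109 (95% counting interval 19.1 to 4350, adjusted p = 0.00361). The S6K1/S6K2 series had 0 against 224 counts (adjusted p = 0.00124). With the EV group set at the floor of 3 counts the ratio was 85.5, and the 95% counting interval began at 69. Il3ra, the interleukin-3 α-chain, was at 28 ± 3.08 CPM with EV and 34.9 ± 3.83 with RAS of the S6K1 series (0.32, SE 0.128, adjusted p = 0.149, and 0.0306 with the replicate term). None passed on S6K loss without pairing.

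Of 12 broadly expressed signalling genes downstream of these receptors, 1 fell in the S6K1 series, and 3 rose and 2 fell in the other, against 13.2% and 26.3% of all genes called. Their median log2 fold changes were -0.21 and -0.05, against 0.00 and -0.02 over all genes. Stat3, a cytokine-activated transcription factor, fell in both, from 302 ± 13.0 to 185 ± 16.7 CPM (-0.71, adjusted p = 0.00522) and from 275 ± 37.5 to 206 ± 13.5 (-0.42, adjusted p = 0.0381). The S6K1/S6K2 series also called Jak2, the kinase bound to the β-chain, which rose by 0.70 (adjusted p = 0.00624), and the adaptors Gab2 (up by 1.17, adjusted p = 0.0132) and Grb2 (up by 0.37, adjusted p = 0.0303). Socs1, a feedback inhibitor, fell there by 1.83 (adjusted p = 0.0046). With the replicate term 1 rose and 4 fell in the S6K1 series, and 3 rose and 4 fell in the other, against 36.2% and 28.7% of all genes. None passed on S6K loss.

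Of 12 signalling genes of blood cells, 11 were tested. Syk, a kinase that acts in phagocytes, rose by 1.28 in the S6K1/S6K2 series, from 8.72 ± 1.40 to 21.2 CPM (adjusted p = 0.00406), and no other passed with RAS without pairing. That was 0 of 11 in the S6K1 series and 1 of 11 in the other, against 13.2% and 26.3% of all genes. All 11 were lower in KO, with a median of -2.04 against 0.03 over all genes. None passed without pairing (0.00712% of all genes did), and 10 passed with the pairs (4.15%). All 11 were lower in DKO too, with a median of -1.21 against 0.00, and none passed (0.0216% of all genes did). These were the same libraries in which the macrophage markers were lower.

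Of 8 regulators of AU-rich mRNAs, a class that includes several cytokine transcripts, Zfp36l1 fell by 0.71 in the S6K1/S6K2 series (adjusted p = 0.0262), and no other passed without pairing. Of all genes, 13.2% passed for RAS over EV in the S6K1 series and 26.3% in the other.

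Of 12 other stromal factors for blood cells, 10 were tested. In the S6K1 series 3 rose and 1 fell, and in the other 2 rose and 2 fell, against 13.2% and 26.3% of all genes called. Their median log2 fold changes were -0.40 and 0.43, against 0.00 and -0.02 over all genes. Lif, a cytokine of the interleukin-6 family, rose from 9.96 ± 2.31 to 39.8 ± 1.02 CPM (1.99, adjusted p = 0.00164) and from 5.28 ± 1.5 to 49.3 ± 3.72 (3.22, adjusted p = 0.000205). Il11, of the same family, rose by 1.93 (adjusted p = 0.00111) and 2.23 (adjusted p = 0.000392). Cxcl12, which retains stem cells in the marrow niche, fell from 1100 ± 616 to 285 ± 81.3 CPM (-1.95, adjusted p = 0.0255) and from 2360 ± 532 to 329 ± 34.9 (-2.85, adjusted p = 0.00121). Il15, a lymphocyte growth factor, rose by 1.17 in the S6K1 series (adjusted p = 0.0386), and Angpt1 fell by 2.40 in the other (adjusted p = 0.000478). None passed on S6K loss. Beside these, the fitted changes of Csf1 with RAS, 0.45 and -0.17, were small.

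Of the 3 other reported receptors of IL-34, Ptprz1, a receptor phosphatase, fell with RAS in the S6K1 series, from 115 ± 50.5 to 41.3 ± 10.7 CPM (-1.48, adjusted p = 0.0287). It rose in the S6K1/S6K2 series, from 8.13 ± 5.53 to 23.3 ± 7.21 CPM (1.51, adjusted p = 0.0441, and 0.0748 with the replicate term). The difference between the series was 2.98 (SE 0.653, adjusted p = 0.121), and 0% of 14483 genes passed that test. Sdc1, a proteoglycan, fell by 0.46 in the S6K1 series (adjusted p = 0.0498) and stood at -0.58 in the other (adjusted p = 0.0532, and 0.0452 with the replicate term). Without pairing 2 of 3 thus passed in the S6K1 series and 1 of 3 in the other, against 13.2% and 26.3% of all genes. Trem2, a receptor of myeloid cells, did not pass without pairing and was at -2.21 in KO (adjusted p = 0.598, and 3.57e-05 with the pairs).

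The genes whose level across the 18 libraries was most like that of each gene were taken from 13616 others by Pearson correlation of log2 CPM. For Csf1r they were Adgre1 (r = 0.996), which encodes the macrophage marker F4/80, Laptm5 (0.995) and Lcp1 (0.993). For Spi1 they were Lmo2 (0.989), Ms4a6c (0.987) and Slc7a8 (0.986), and for Csf2rb they were Rgs1 (0.969), Fcgr2b (0.963) and Cd14 (0.962). For Csf3r they were Pirb (0.948), Ms4a7 (0.947) and Apoe (0.945), and for Csf2ra they were Rgs10 (0.927), Igf1 (0.916) and Cxcl16 (0.916). Csf1 was closest to Siglec1 (0.898), Lrrn4cl (0.897) and Hoxc9 (0.897), and Il34 to Ephx2 (0.880), Mettl6 (0.871) and Gss (0.861). Of all pairs among the 7 genes compared, Csf1r and Spi1 were closest (0.967), and Il34 and Csf2ra were furthest apart (-0.58).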

How the data were processed

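Libraries were stranded mRNA, sequenced single-end. The authors deposited raw counts per gene for 18 libraries. The methods name TopHat, mm9 and HTSeq, whereas the submitters' processing notes name STAR 2.7.1a, mm10 and DESeq2 1.28.1. Which run made the table, its annotation and its strand setting are not given in the sources used here. Of 55401 identifiers 32589 matched a gene name (99.1% of counts).

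Counts were tested with edgeR 4.0.16 (R 4.3.3): filterByExpr (minimum count 10), TMM scaling, a quasi-likelihood fit per series (all 18 libraries for averages and differences), 2-sided tests and Benjamini-Hochberg adjustment over all genes tested, threshold 0.05. The script was tested on simulated data. SE is the log2 fold change divided by the root of F. Alternatives were DESeq2 1.42.0, other scalings, filters and sample sets, the replicate block and leave-one-out. Log2 levels used a prior count of 2 and ratios within lines 0.5 CPM. Exon lengths came from GENCODE M1 (NCBIM37).

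The 9 genes and the gene lists were chosen with earlier results of these data known. All 9 were named in every comparison and list genes where called in any of 4 comparisons, except for a list of myeloid transcription factors, which is not reported here. Other genes named were chosen after their values were seen. Same-numbered libraries were paired for EV and RAS of 1 WT line, and for KO and WT of the S6K1 series, where the match by number was assumed. Their deviations from the group means correlated at 0.293 to 0.692 over these 9 pairs. DKO and WT numbers mark no littermates (0.279, 0.454 and -0.04). The replicate term of the S6K1/S6K2 series and of the averages still gave DKO libraries the numbers of the WT lines. A fit with the term on the 6 EV and RAS libraries of that series was chosen after seeing the data. There the adjusted p of RAS over EV was 0.0128 for Csf1r and 0.0684 for Csf2ra. Replicates are numbered lines, and p-values measure the spread between them. No 2 replicates agreed within sampling noise (lowest chi-square per degree of freedom 7.98 over 18 pairs).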

Additional observations from a re-analysis of the deposited data

How the results depend on the processing

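Of the counts of genes called in the 7 comparisons, 99 values under alternatives equalled the reported one and 18 did not. The replicate block moved the count of genes called from 0 to 2 for RAS over EV in the S6K1 series and from 0 to 3 for KO against WT of that series, and from 1 to 4 for the average of both series. In the S6K1/S6K2 series it kept the count at 1 but for another gene, Csf1r in place of Csf2ra. It called none in DKO against WT, whose numbers pair no lines. With the block on only the 6 libraries compared, an alternative chosen after seeing the data, the counts in the S6K1 series were 3 and 3. For RAS over EV in the S6K1/S6K2 series the count was 0 with no filter, with only the 6 libraries compared, with all 18 libraries in 1 fit, and without the libraries numbered 1 (chosen after seeing the data), and 0 to 1 when 1 library was left out. For KO against WT it was 2 without the libraries numbered 3. For the average it was 0 with at least 10 counts in every library, which left Il34 untested, and 1 to 2 when 1 library was left out. Left-out libraries gave Il34 adjusted p from 0.00933 to 0.0437 there.

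Of 764 log2 fold changes under alternatives, 44 changed sign, all of genes that were not called. With the block Spi1 in RAS over EV of the S6K1 series became -0.018, and -0.014 on the 6 libraries. Leaving out 1 library gave, for RAS over EV in the S6K1 series, Csf1r -0.65 to 0.20 and Spi1 -0.41 to 0.55, and in the S6K1/S6K2 series Csf1r -2.73 to 0.70 and Spi1 -2.79 to 1.64. Spi1 in DKO against WT ranged from -2.67 to 0.15. In the average Csf1r ranged from -1.46 to 0.24 and Spi1 from -1.35 to 0.85. The difference of the RAS effect ranged from -0.45 to 0.94 for Csf2rb, -0.46 to 0.28 for Il34, -0.90 to 1.03 for Csf3r, -2.49 to 0.90 for Csf1r and -2.85 to 1.57 for Spi1. The difference of the loss effect ranged from -0.18 to 0.33 for Csf1, -0.86 to 1.81 for Csf1r, -0.30 to 0.85 for Csf2rb and -0.40 to 2.43 for Spi1. The cause was not tested. All 54 group means moved by less than 1 SD under scaling by total counts. Genes under about 1 CPM rest on a few counts.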
